A study of Mus musculus with 8 samples.

Results

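The replication-dependent histone genes supply the core histones H2A, H2B, H3 and H4 and the linker histone H1 that package newly copied DNA. They were taken as the protein-coding autosomal genes of the RefSeq table (build GRCm38.p6, the chromosomes of mm10) whose symbol begins with Hist1h, Hist2h, Hist3h, Hist4h, H2ac, H2bc, H3c, H4c or H1f followed by a digit. The rule found 67 of 20665 such genes, of which 10 code for H1, 17 for H2A, 16 for H2B, 12 for H3 and 12 for H4. It uses names alone, so it also takes H1f0, H1f7, H1f8 and H1f10, linker histone genes that are not tied to DNA replication, and the testis genes H1f6, H2bc1 and H2ac1.

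Most of these genes are short, have no intron, stand in dense clusters and are transcribed in bulk in S phase. Their mRNAs are the exception among animal mRNAs in carrying no poly(A) tail: a stem-loop at the end of the message is bound by Slbp, and the U7 snRNP and its cleavage complex cut just after it. H2A and H2B genes often stand head to head and share 1 promoter. CTCF binds DNA through zinc fingers at insulators and loop anchors. There it halts cohesin, the ring complex of Smc1a, Smc3 and Rad21, which extrudes loops and holds sister chromatids together. Most cohesin peaks of mammalian cells lie on CTCF sites.

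Peaks came from chromatin immunoprecipitation and sequencing (ChIP-seq) of CTCF and of Smc3 in embryonic stem cells of the mouse line JM8.N4, cultured in serum and LIF on gelatin, with no feeder layer. The wild type (WT) was compared with C59, a single clone of the same cells that is homozygous for CTCF fused to FLAG and Halo and for Rad21 fused to SNAPf and V5. The comparison addresses whether the tagged proteins, made for imaging in live cells, bind where the untagged ones do. The authors' lists held 98759 peaks of CTCF and 47281 of Smc3 for WT, and 82227 and 25734 for C59. Each list is 1 library, so no difference had a replicate check, no test was possible and intervals on shares cover counting error only.

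A gene was counted as having a peak when the summit, the highest point of the peak, lay within 1 kb of the annotated gene. Smc3 peaks met this at 52 of the 67 histone genes in WT, or 77.6% (exact Clopper-Pearson 95% interval 65.8 to 86.9). The same 52 genes had one in C59. Over all autosomal protein-coding genes the share was 52.4% in WT and 36.2% in C59, but most genes are far longer than a histone gene and offer more room for a summit. Counted within 1 kb of either end of the gene, a window chosen after seeing the data that depends less on length, the histone count stayed at 52 in both lines and the share of all genes was 21.8% in WT and 11.8% in C59.

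CTCF did not show this excess by either window. Its summits lay within 1 kb of 24 histone genes in WT (35.8%, interval 24.5 to 48.5) and of 15 in C59 (22.4%, interval 13.1 to 34.2), against 70.0% and 66.3% of all genes. By either end, 23 histone genes had CTCF in WT (34.3%, interval 23.2 to 46.9) and 13 in C59 (19.4%, interval 10.8 to 30.9). The shares of all genes were 39.7% and 34.1%, and the WT interval includes that of WT. Smc3 was therefore found at more histone genes than CTCF was, whereas across all genes CTCF was found at more.

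The Smc3 peaks were split by whether they shared at least 1 bp with a CTCF peak of the same line. In WT, 46 histone genes had an Smc3 peak without CTCF by either end (68.7%, interval 56.2 to 79.4), and in C59 there were 48 (71.6%, interval 59.3 to 82.0). Among all genes such peaks were rare: 3.45% in WT and 1.60% in C59. Ribosomal protein genes, another large set of short genes that growing cells transcribe heavily, gave 24 of 73 in WT (32.9%, interval 22.3 to 44.9) and 29 of 73 in C59 (39.7%, interval 28.5 to 51.9). Olfactory receptor genes, a clustered family best known from the nose, gave 0 of 1104 in both lines, with an exact upper bound of 0.334%. All 46 genes of WT were among the 48 of C59. Transcription was not measured in these libraries, and its part in these counts was not tested.

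**Figure D1:**
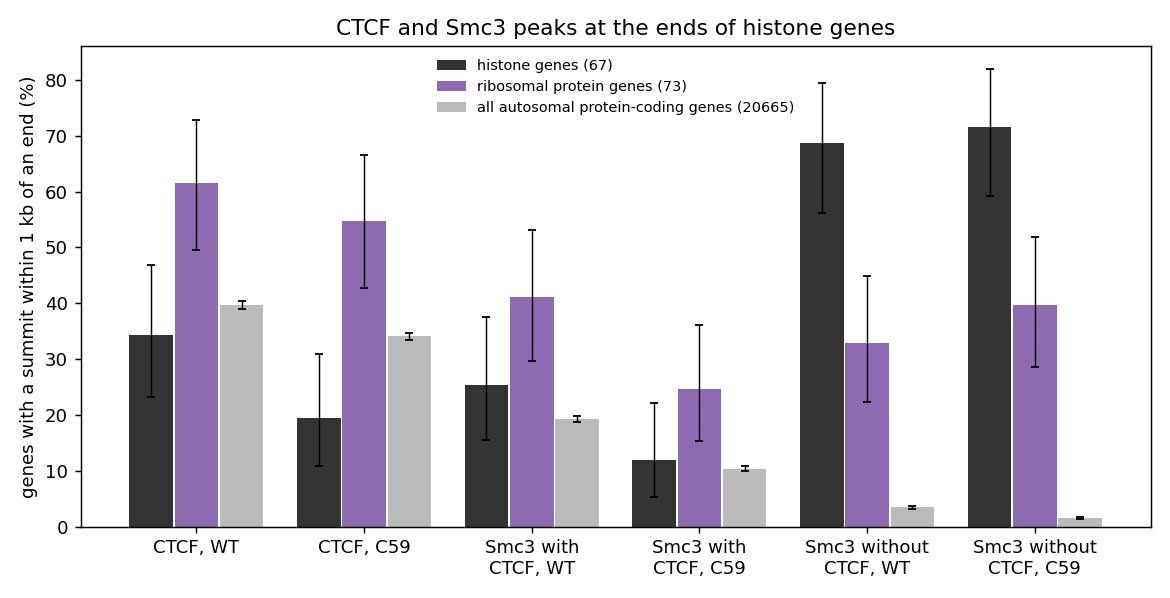
Share of genes (y axis, percent) with a summit within 1 kb of either gene end for CTCF, for Smc3 peaks that overlap CTCF and for Smc3 peaks that do not, in WT and C59. Bars are 67 histone genes, 73 ribosomal protein genes and 20665 autosomal protein-coding genes, and lines are exact 95% intervals for counting error. Smc3 without CTCF reaches 68.7% and 71.6% of histone genes, and the bars for all genes stand at 3.45% and 1.60%.

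Single sequences show what these promoters hold. The windows reach from 250 bases before to 50 after each annotated start in RefSeq's GRCm38.p6 table, which covered 62 members; H3c7, H2bc4, H3c1, H2bc21 and H4c14 had no entry and hence no strand. Each motif was searched on both strands. The TATA box TATAAA stood in 34 of the 62 windows (54.8%, against 13.5% of 16457 promoters). No match lay within the 250 bases before the start of H2ac18 or between the starts of H2ac12 and H2bc12. These genes are among the 34, so their matches touched bases past these starts. How many of the 34 had the match wholly before the start was not counted. CCAAT, the letters bound by NF-Y, stood in 51 (82.3%, against 38.9%), including every H2A, H2B and H3 window that was searched. Of the 11 H4 windows, 3 held CCAAT (27.3%) and 8 held TATAAA (72.7%). The octamer ATTTGCAT, a site for Oct proteins, stood in 6 of 17 H2A and 6 of 14 H2B windows and in no window of the other families (19.4% of members, against 1.73%). Windows of head-to-head genes overlap, so 1 site of any motif can count for both genes. The octamer between H2ac12 and H2bc12 was counted once for each. GGTCCG, a core of the H4 element read by Hinfp, stood in 10 of 11 H4 windows (10.8% of all promoters). AGGNGGCGC, a stretch of the CTCF motif, stood in 1 window, that of H4c12 (4.50% of all promoters), and H4c12 had no CTCF peak in either line. The 3 sequences below show a promoter shared by a head-to-head pair, an H4 promoter and an H1 promoter, with matches to these motifs in capitals. They are chr13:22035644-22035820 on the plus strand, all bases between the starts of H2ac12 and H2bc12 and read toward H2bc12, chr13:23698459-23698708 on the minus strand and chr13:23554782-23555031 on the plus strand.
H2ac12/H2bc12: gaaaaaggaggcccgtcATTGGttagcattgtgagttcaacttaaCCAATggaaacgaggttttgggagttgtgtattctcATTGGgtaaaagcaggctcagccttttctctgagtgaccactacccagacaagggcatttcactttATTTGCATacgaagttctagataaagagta
H4c3: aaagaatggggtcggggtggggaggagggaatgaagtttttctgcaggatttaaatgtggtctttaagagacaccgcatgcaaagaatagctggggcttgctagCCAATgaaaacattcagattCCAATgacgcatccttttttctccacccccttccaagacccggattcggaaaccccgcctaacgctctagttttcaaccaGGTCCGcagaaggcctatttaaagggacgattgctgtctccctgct
H1f3: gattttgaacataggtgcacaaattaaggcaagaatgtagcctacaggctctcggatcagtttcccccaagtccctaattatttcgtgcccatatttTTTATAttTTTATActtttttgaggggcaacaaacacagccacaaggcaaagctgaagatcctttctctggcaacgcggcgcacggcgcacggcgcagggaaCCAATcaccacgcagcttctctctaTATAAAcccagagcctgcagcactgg
The shared promoter holds CCAAT 3 times, on both strands, and the octamer next to the start of H2bc12. The H4c3 promoter holds CCAAT 2 times and GGTCCG once, and the H1f3 promoter holds TATAAA 3 times and CCAAT once. The 250 bases before the start were almost free of summits: of the 4 lists, C59 CTCF alone placed one there, at H4c6. That summit lay at -12 bp from the start, and the WT CTCF summit of the same gene lay 26 bp past the start. How often these bases hold a summit at other genes was not counted.

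The Smc3 peaks lay at the other end of the gene. Within 1 kb of the 3′ end, Smc3 had a summit at 44 of 62 histone genes with a known strand in WT and in C59 (71.0%, interval 58.1 to 81.8), against 9.61% and 6.08% of all genes. Without CTCF the counts were 36 in WT and 40 in C59, against 1.84% and 1.35% of all genes. Neighbouring genes can share a peak, so the positions were counted over peaks. Of the Smc3 peaks without CTCF within 1 kb of a histone gene's end, all 35 with a known strand in WT and all 38 in C59 were nearer the 3′ end than the 5′ end of the nearest gene. Around all other genes the share was 41.9% of 532 peaks in WT and 66.0% of 209 in C59, and around ribosomal protein genes 65.2% of 23 and 75.0% of 24.

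Within histone genes the position was also narrow. The median summit lay 164 bp past the annotated 3′ end in WT (quartiles 107 and 214) and 150 bp past it in C59 (quartiles 125 and 183). Between 100 and 300 bp past the end lay 22 of the 35 WT summits and 32 of the 38 C59 summits. Around all other genes, the summits without CTCF nearest a 3′ end had medians of 246 bp past it in WT and 260 bp in C59. Of those summits, 26 of 223 in WT and 24 of 138 in C59 lay between 100 and 300 bp past the end. Around ribosomal protein genes, the summits nearest a 3′ end lay further out, at a median of 642 bp past it in WT and 614 bp in C59.

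Medians of the families lay close together, apart from H1. Over Smc3 peaks with or without CTCF, the median distance past the 3′ end was 155 bp in WT and 144 bp in C59 for H2A, 206 and 189 bp for H2B, 176 and 170 bp for H3, and 157 and 175 bp for H4. For H1 it was 16 bp past the end in WT and -27 bp, inside the gene, in C59, over 5 peaks in each line. The H1 summits ranged from -16 to 170 bp in WT and from -157 to 125 bp in C59. The H4 summits of C59 were the tightest, between 122 and 217 bp past the end at all 9 genes with one.

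**Figure D2:**
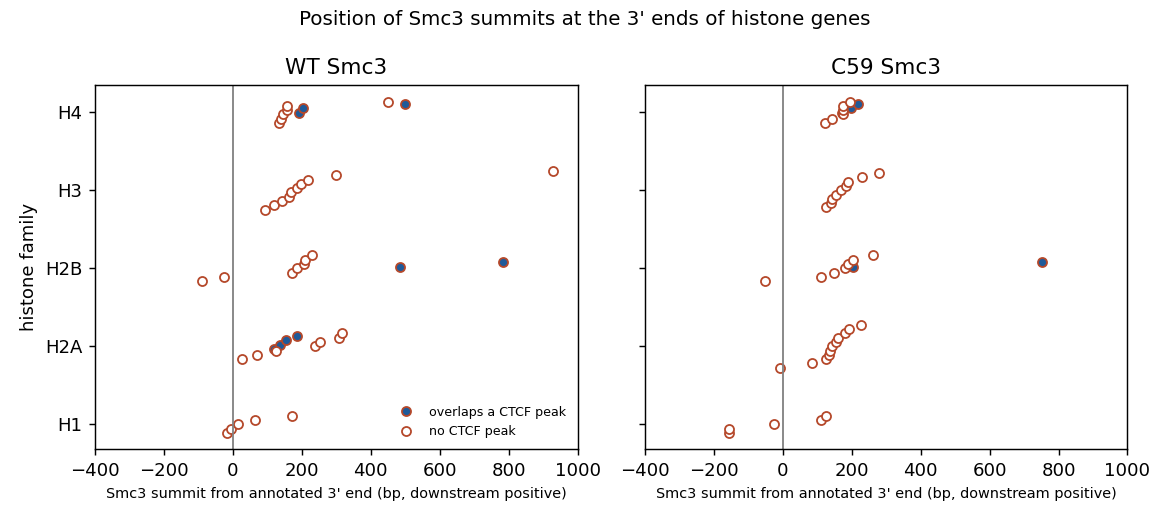
Distance of each Smc3 summit from the annotated 3′ end of the nearest histone gene (x axis, bp, positive past the end) by family (y axis), in WT and C59, for summits within 1 kb of that end. Filled points overlap a CTCF peak and open points do not. Most points of H2A, H2B, H3 and H4 stand between 100 and 300 bp past the end, and those of H1 stand around the end itself.

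The head-to-head pairs show the same order. Pairs needed a known strand for both genes, which left out the neighbours H2ac6 and H2bc4 and the neighbours H2ac20 and H2bc21. In 9 pairs an H2A and an H2B gene start within 1 kb of each other and point apart, with starts 164 to 281 bp from each other. No summit of any of the 4 lists lay between the starts, but stretches this short at other genes were not counted. Smc3 peaks stood beyond both outer ends at 5 pairs, beyond 1 outer end at 2 pairs and at neither at 2 pairs, the same in WT and C59. The 5 pairs with both were H2bc13/H2ac13, H2ac15/H2bc15, H2ac12/H2bc12, H2ac11/H2bc11 and H2ac8/H2bc8. H2bc7/H2ac7 had the peak on the H2A side alone, with a fold of 3.94 in WT and 7.15 in C59.

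The strength of a peak is the authors' fold, the pileup of fragments at the summit over the local background, and it is compared here within a list only. Of the 52 distinct Smc3 peaks at histone genes in WT, 38 lay without CTCF and 14 on CTCF, and of 49 in C59, 41 and 8. All 38 WT peaks without CTCF overlapped an Smc3 peak of C59, and all 41 of C59 overlapped one of WT. Their median fold was 5.50 in WT (2.42 to 11.6) and 7.65 in C59 (3.57 to 14.8). The 2258 and 537 autosomal Smc3 peaks without CTCF, among which they are counted, had medians of 3.32 and 3.89. The peaks were also wide, with a median of 606 bp in WT and 641 bp in C59 against 318 and 386 bp. Among the 20 highest folds of Smc3 peaks without CTCF, 9 in WT and 12 in C59 were at histone genes, and among the 100 highest, 23 and 35.

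Linker histone genes stood high among them. H1f3, in the largest cluster, had the highest fold of any member in C59, 14.8, and 9.39 in WT, with the summit 16 bp inside the 3′ end in WT and 27 bp inside in C59. H1f2 had 8.36 in WT and 13.9 in C59, H1f5 6.94 and 11.8, H1f4 5.62 and 8.66, and H1f1 8.78 and 8.19. All 5 are main somatic H1 subtypes, and none had a CTCF peak within 1 kb in either line. H1f10, a linker gene outside the clusters, was different: its Smc3 peak of 6.37 in WT and 3.23 in C59 lay at the 5′ end on a CTCF peak of 22.7 and 19.6. H1f6, H1f0, H1f7 and H1f8 had no Smc3 peak.

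Core histone genes gave the other strong peaks. H4c9 had the highest WT fold, 11.6, and 7.97 in C59. H4c11 had 4.45 in WT and 14.1 in C59, the next highest there, each value being relative to its own list. The local background at this peak was 9.34 in WT and 3.57 in C59, and the pileup was 45.0 and 63.3. H3c3 stood at 9.37 and 12.4, H3c1 at 8.22 and 9.98, H3c10 at 7.21 and 11.9, H3c11 at 5.72 and 12.2, and H3c15 at 6.55 and 10.2. H2A and H2B genes had lower peaks: the median over genes of the highest fold was 4.50 in WT and 6.76 in C59 for H2A and 4.70 and 7.38 for H2B, against 6.25 and 9.84 for H3 and 6.37 and 9.28 for H4. H2ac10 had the lowest WT fold, 2.42, and 4.01 in C59, and H2ac13 had 3.13 in WT and 3.57 in C59, the lowest C59 fold of a core histone gene. The families with the lower medians were thus H2A and H2B in both lists.

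Relative to other Smc3 sites, the histone sites stood higher in C59 than in WT. To compare the lines, 24583 Smc3 sites with 1 peak in each list that overlapped each other were ranked by fold within each line, with 100% as the strongest. The 36 histone sites without CTCF had a median rank of 19.0% in WT and 76.7% in C59, and 35 of them ranked higher in C59. H4c9 was the exception, at 78.8% and 78.5%. The 8 histone sites with CTCF in both lines had medians of 27.2% and 85.3%, and 6 of them ranked higher in C59; the exceptions were H1f10 (27.1% and 3.01%) and the site inside H2bc6 (15.1% and 11.6%). Elsewhere, 195 sites without CTCF had medians of 3.15% and 14.4%, with 82.6% of them higher in C59, and 24310 sites with CTCF in both lines had 50.6% and 50.3%. Sites elsewhere on chromosome 13, where most histone genes lie, had medians of 49.2% and 51.1%.

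The rank by pileup alone, which does not use the local background, gave medians of 15.4% in WT and 74.0% in C59 for the 36 sites, and all 36 ranked higher in C59. The median background at them was 5.94 in WT and 4.38 in C59, near the 5.93 and 4.25 of all sites elsewhere. The C59 list is the shorter one, and with 1 library a line the tags, the clone and the library cannot be told apart.

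**Figure D3:**
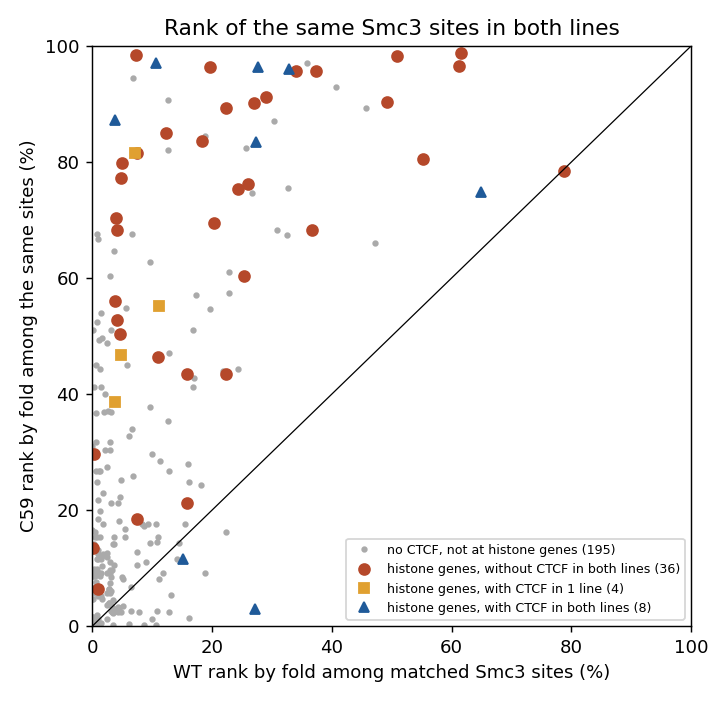
Rank by fold of the same 24583 Smc3 sites in WT (x axis) and C59 (y axis), in percent with 100 as the strongest, for histone sites by CTCF overlap and for 195 other sites without CTCF. Of the 36 histone sites without CTCF, 35 stand above the diagonal of equal rank, and their median goes from 19.0% to 76.7%.

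The largest cluster runs from H4c8 to H1f1 on chr13:23531044-23764412, with 29 histone genes in 233 kb and 1 other coding gene, Hfe, which codes for a regulator of iron uptake. It held 29 Smc3 summits in WT and 28 in C59, 21 and 22 of them without CTCF, at 26 genes in each line. Per 100 kb, taken over the cluster and 1 kb on each side, that is 12.3 and 11.9 Smc3 peaks, against 1.88 and 1.03 over the autosomes, and 6.80 and 4.67 CTCF peaks, against 3.92 and 3.26. The highest CTCF fold of the cluster in C59, 35.2, lay inside the long span of H2bc6, and in WT that peak had 16.2. The highest in WT, of 34.2 against 34.5 in C59, lay 202 kb into the cluster, more than 1 kb from any histone gene, and others of 32.2 and 27.8 and of 16.4 and 18.3 lay between the same genes, H4c3 and H1f2. The highest Smc3 fold of the cluster in WT, 20.2, was at the peak of 32.2. In C59 the highest was the 14.8 at H1f3, which has no CTCF. At the cluster's ends, H4c8 had Smc3 of 6.25 in WT and 7.75 in C59, H1f1 had the values given above, and neither had CTCF.

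**Figure D4:**
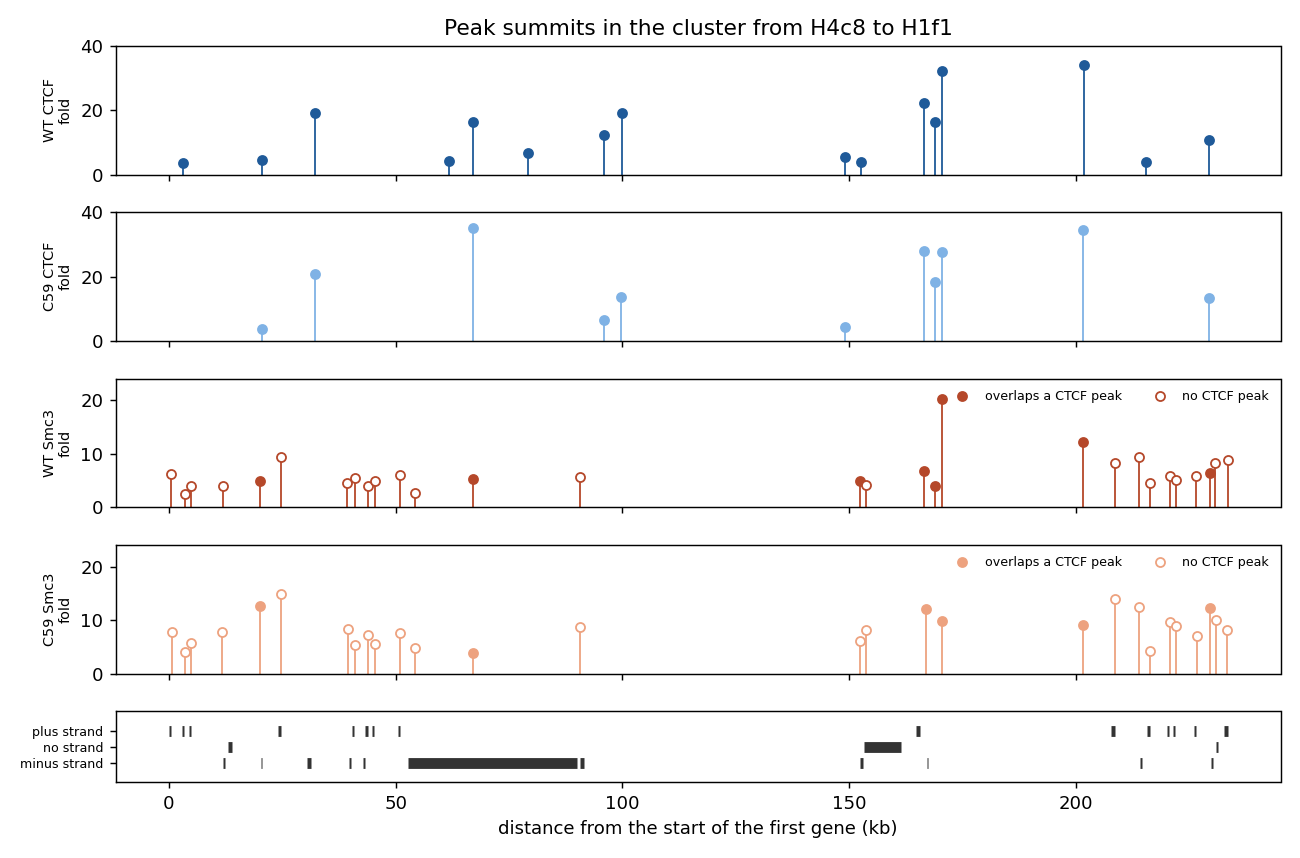
Summits of the 4 lists in the cluster from H4c8 to H1f1 by distance from its first gene (x axis, kb) and the authors' fold (y axis), with the histone genes by strand below. Filled Smc3 points overlap a CTCF peak and open points do not. The open points follow the genes in both lines, with 21 in WT and 22 in C59, and CTCF peaks stand at 170 and 202 kb, between H4c3 and H1f2, with no histone gene under them. The tallest CTCF peak of C59, 35.2, stands at 67.1 kb inside the long span of H2bc6.

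The second cluster holds 17 genes from H2bc13 to H2ac24 on chr13:21715711-21833475. Of Smc3 it had 15 peaks in WT and 12 in C59, with 8 and 10 of them away from CTCF, at 12 of its genes in both lines. Its left end, H2bc13, carried CTCF of 23.6 in WT and 27.1 in C59 with Smc3 of 9.75 and 7.61 at a summit 785 and 751 bp past the gene, on that CTCF peak. H4c11 had the highest CTCF fold of any member in WT, 32.9, and 19.9 in C59, at -746 and -737 bp from its start. Smc3 lay on it in WT, at 6.63, but not in C59, while the peak past the 3′ end of the same gene, without CTCF, was found in both. The right end of the cluster was empty: from the CTCF peak inside H2bc22 (7.22 in WT, 3.71 in C59), no summit of the 4 lists lay for 63.5 kb. The genes in this gap are H2bc23, H2ac23, H4c17, H4c18 and H2ac24.

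**Figure D5:**
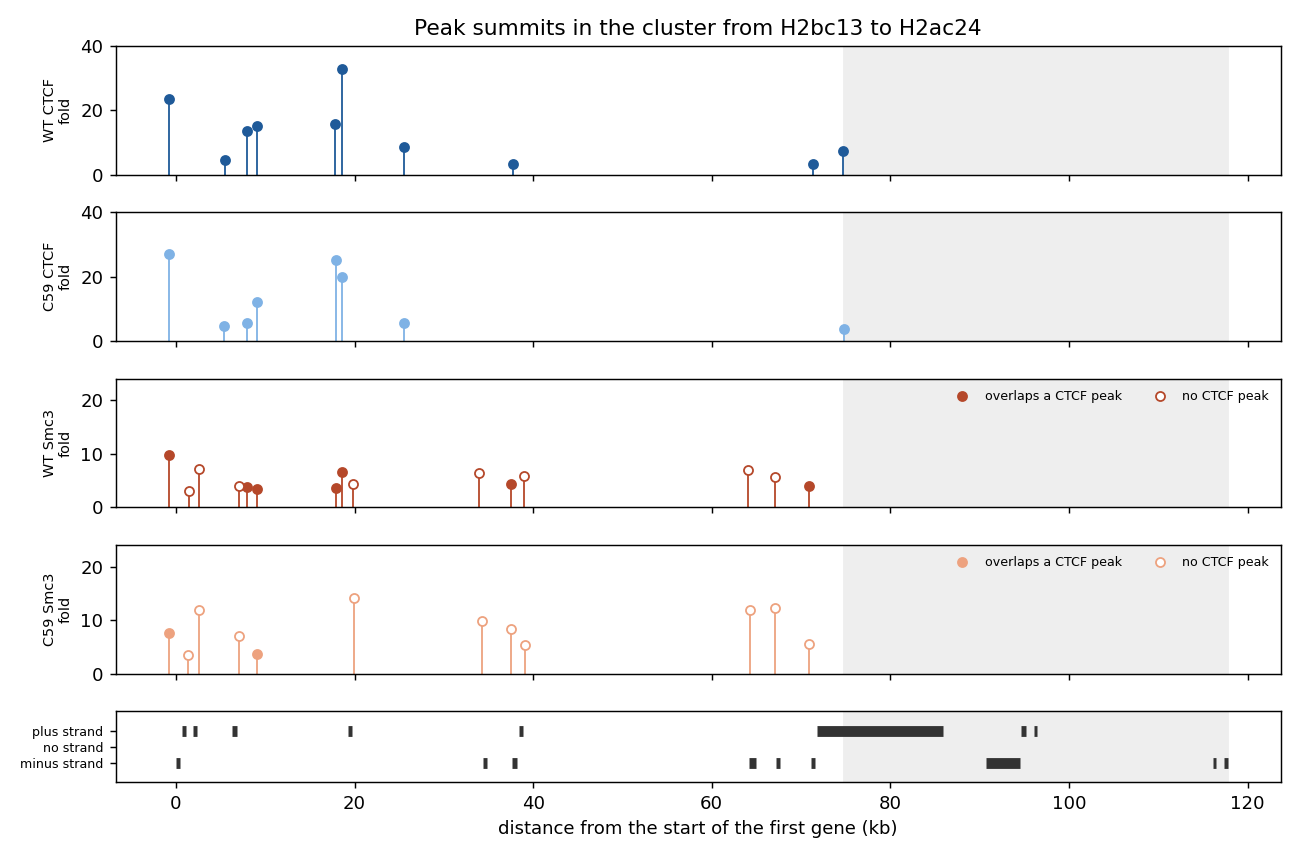
Summits of the 4 lists in the cluster from H2bc13 to H2ac24 by distance from its first gene (x axis, kb) and the authors' fold (y axis), with the histone genes by strand below. Shading runs from the last summit to the end of the last gene. It holds no summit of any list and 5 of the 17 genes.

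A cluster of 5 genes from H2ac12 to H2bc11, chr13:22035122-22043658, spans 8.54 kb and was the densest, with 47.5 Smc3 peaks per 100 kb in both lines when 1 kb on each side is included. All 5 genes had Smc3. A CTCF peak past H2bc11, of 10.3 in WT and 24.7 in C59, marked 1 end. The cluster on chromosome 3, chr3:96219885-96270192, has 10 genes from H2ac21 to H2bc18. Of Smc3 it had 9 peaks in WT and 6 in C59, with 6 and 5 of them away from CTCF, at 8 genes in each line. H4c14 had CTCF of 17.9 in WT and 17.7 in C59, with Smc3 of 6.39 and 8.63, and H2bc18 at the right end had Smc3 of 7.17 and 6.98 without CTCF. At the left end, H2ac21 had CTCF of 8.47 and 8.22 before its start. The Smc3 peak on it, of 3.32 in WT, was not called in C59, and the other Smc3 peak of the gene, near its 3′ end and without CTCF, was called in both, at 6.20 and 6.37.

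The testis pair H2bc1 and H2ac1, chr13:23933725-23934913, had no peak of any list. These genes code for core histones of developing sperm. H1f6, the testis H1 inside the largest cluster, also had no peak of any list, although H4c3, its neighbour, had both proteins.

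In all, 15 members had no Smc3 peak in either line and 12 had no peak of any list. The 12 were the 5 genes of the gap, H3c7, H1f6, H2bc1, H2ac1, H2ac18, H2ac19 and H1f8, an oocyte linker histone. H3c6 had CTCF of 19.2 in WT and 20.7 in C59 before its start and no Smc3. Several of the 12 are near copies of each other, and a read that matches 2 places equally cannot be assigned to 1 of them. The longest identical run between the 300-base promoter windows was 285 bases for H4c17 and H4c18, 231 for H3c14 and H3c15, 219 for H2ac18 and H2ac19 and 200 for H2ac23 and H2ac24. Of these 8 genes 6 had no peak, and H3c14 and H3c15 had Smc3, at 5.24 and 6.55 in WT. The other 5 peakless genes with a window shared at most 25 bases with any other, and the median over genes with a peak was 15 bases. The sequences around the 3′ ends, where most Smc3 summits of histone genes lay, were not compared. The sources used here do not say how reads with more than 1 match were treated, so the absence of peaks at the near copies is uncertain, and its link to the copies was not tested. The pair below shows how close 2 of these genes are, with the run of 169 bases that their upstream parts share in capitals. They lie back to back at chr3:96240375-96240624 on the minus strand and chr3:96245247-96245496 on the plus strand.
H2ac19: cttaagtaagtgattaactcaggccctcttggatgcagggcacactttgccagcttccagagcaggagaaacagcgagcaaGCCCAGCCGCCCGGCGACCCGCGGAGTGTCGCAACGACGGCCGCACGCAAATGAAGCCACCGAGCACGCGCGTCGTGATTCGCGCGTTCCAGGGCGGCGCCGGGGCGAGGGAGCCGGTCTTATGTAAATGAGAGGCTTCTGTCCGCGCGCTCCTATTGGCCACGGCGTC
H2ac18: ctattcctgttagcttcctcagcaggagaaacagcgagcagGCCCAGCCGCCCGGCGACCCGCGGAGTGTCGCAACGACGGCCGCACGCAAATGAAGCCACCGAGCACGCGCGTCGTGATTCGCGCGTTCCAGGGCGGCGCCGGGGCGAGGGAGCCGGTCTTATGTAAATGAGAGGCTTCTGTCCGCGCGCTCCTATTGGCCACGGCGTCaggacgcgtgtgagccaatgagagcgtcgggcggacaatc
No summit of the 4 lists lay within the 9.37 kb that holds both genes, from the Smc3 peak past H3c15 to the one past H3c14.

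CTCF was found at fewer histone genes in C59 than in WT when the full lists were used. Of the 24 genes with CTCF in WT, 14 had it in C59 (58.3%, interval 36.6 to 77.9), against 94.0% of all genes by the same window. By either end, 12 of 23 had it (52.2%, interval 30.6 to 73.2), against 82.6% of all genes. With each list limited to its 25734 strongest peaks, 7 histone genes had CTCF in WT and 8 in C59, and all 7 of WT had it in C59. This cut removes most peaks of both CTCF lists, and the part of list length in the difference was not tested. With a −log10 q of at least 10, 13 genes had CTCF in WT and 11 in C59, and 10 of the 13 had it in C59 (76.9%). In the full lists, the 10 genes with CTCF in WT alone were H2ac15, H2bc15, H2ac22, H2ac12, H2bc12, H2ac10, H2ac6, H2bc4, H3c3 and H2bc3. They shared 6 peaks with folds between 3.12 and 3.91. Other peaks found in WT alone, of 6.84 and 4.37, lay inside H2bc6. Low folds were also found in both lines, at H1f7 (3.30 in WT, 5.48 in C59), H4c6 (4.68, 3.69) and H2bc14 (4.66, 4.81). Summits of 4 of the 6 lay inside a gene close to its 3′ end, at H2ac15 (-55 bp), H2ac12 (-63 bp), H2ac6 (-49 bp) and H2ac10 (-124 bp), and the first 3 overlapped the Smc3 peak there. With CTCF not called in C59, the Smc3 peaks past H2ac15, H2ac22, H2ac12 and H2ac6 became peaks without CTCF. H1f0 had CTCF in C59 alone, at 2.53, the lowest CTCF fold at any member.

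Where Smc3 and CTCF peaks overlapped at a histone gene, their summits often lay apart. At H4c1, CTCF (10.9 in WT, 13.5 in C59) had its summit 526 and 521 bp past the end, and Smc3 (6.41 and 12.2) had its summit 191 and 199 bp past it. At H4c3, CTCF (22.2 and 27.9) lay 510 and 500 bp past the end, and Smc3 lay 498 bp past it in WT, at 6.83, but 217 bp past it in C59, at 12.0. At H2bc11, CTCF lay 671 and 663 bp past the end and Smc3 484 bp past it in WT, at 3.90, and 203 bp past it in C59, at 9.23. At H2bc13, by contrast, the summits were close, at 781 bp for CTCF and 785 bp for Smc3 in WT. At H4c6 the CTCF peak (4.68 and 3.69) stood at the start of the gene and Smc3 (4.85 and 12.7) 202 and 173 bp past the end. H2bc6, whose annotated span is long and reaches to H1f4, held CTCF of 16.2 in WT and 35.2 in C59 far from its ends, with Smc3 of 5.32 and 3.90.

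Smc3 was found again in C59 at 52 of the 52 histone genes that had it in WT (interval 93.2 to 100.0), against 68.2% of all genes by the gene span and 50.8% by either end. For ribosomal protein genes it was 33 of 41 (80.5%, interval 65.1 to 91.2). Peak by peak, 50 of the 52 WT peaks overlapped one of C59, and the 2 others, at H4c11 and H2ac21, both lay on CTCF. No WT gene or peak without CTCF was lost.

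The genes of histone supply were counted by the same window of 1 kb around the gene. Of 25 listed factors 24 are autosomal, and with CTCF within 1 kb at 13 of them in WT and 14 in C59. Smc3 was at 9 and 3, and at 1 in each line it lay without CTCF. Of all genes by this window, 70.0% in WT and 66.3% in C59 had CTCF, 52.4% and 36.2% had Smc3, and 5.97% and 1.97% had Smc3 without CTCF, so a count of 1 is near the level of all genes in both lines. Slbp, the stem-loop binding protein, had CTCF of 24.1 and 21.5, with Smc3 of 5.23 in WT alone. Lsm11, a U7 snRNP protein, had CTCF of 32.0 and 54.4 and Smc3 of 8.59 and 10.4. Hinfp, the H4 promoter factor, had CTCF of 29.8 and 22.8 and Smc3 of 10.6 in WT alone. Chaf1b, a subunit of the chaperone that loads histones behind the replication fork, had CTCF of 46.8 and 53.1 and Smc3 of 11.2 and 6.68. Npat, the coactivator of histone transcription, had no peak of any list within 1 kb. The peaks without CTCF were at Hat1 in WT (3.59), which codes for a histone acetyltransferase, and at Srrt in C59 (3.80), which codes for an RNA-binding protein of the cap complex.

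Among 8 genes of replication-independent variants, whose mRNAs are made outside S phase too, 3 had Smc3 in each line, against 52.4% of all genes in WT and 36.2% in C59. H2az1, which codes for H2A.Z, had Smc3 without CTCF at 8.05 in WT and 6.81 in C59, and H3f3b, which codes for H3.3, at 4.62 and 4.21. H2ax, whose product marks broken DNA, had Smc3 of 3.16 and 5.44 on CTCF of 7.74 and 8.31. H2az2 had CTCF alone, at 7.29 and 4.62, and Macroh2a2 had CTCF in C59 alone, at 7.80. H3f3a, Cenpa and Macroh2a1 had no peak.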

How the data were processed

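CTCF and Smc3 ChIP-seq of 2 lines gave 4 peak lists, 1 library each, and the libraries of input and IgG were not used here. The extract protocol in the labels names antibodies to CTCF and Rad21, but the Smc3 libraries carry an antibody label for Smc3, which was followed. Software named in the submitters' processing notes, without roles, was deepTools 2.4.1, MACS2 2.1.0.20140616, Bowtie 0.12.8, FastQC 0.10.1 and CASAVA, and the build was mm10. Sequencing depth is unknown. For the control, threshold and treatment of duplicate or multiply matching reads, nothing is given in the sources used here. The pileup signal, the p-value and q-value and the fold enrichment (a ratio to local background) of each peak are the authors' deposited values.

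Peaks were joined to genes with pandas 2.3.3, scipy 1.17.1 and numpy 2.4.6 under Python 3.11.15, and matplotlib 3.10.9 drew the figures. The window was 1 kb and the least overlap 1 bp, and members at most 100 kb apart formed a cluster. Background was pileup plus 1, divided by fold, minus 1. Counting was tested on simulated intervals. Members, lists and windows were chosen with earlier results of these data known. Named were the members with the highest WT folds per cluster and family, up to 12 with Smc3 without CTCF, those found in C59 alone, those at cluster ends, and factors and variants with a peak; other members were named once their values were known, for completeness. Alternatives covered windows, the q-value, list length, the overlap rule, cluster gap and members. Promoter sequences came from the RefSeq table of GRCm38.p6, and protein sequences were not used.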

Additional observations from a re-analysis of the deposited data

How the results depend on the processing

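Of 94 alternative values for 12 counts and shares, 79 lay within 1.5 times of the count or within the interval of the share, and 15 did not. Some of the 79 could not move. No histone gene lies on chromosomes 1, 8 or 11, so leaving these chromosomes out repeated the main counts and shares of genes. With lists cut to the 25734 peaks of the shortest, histone genes with CTCF were 7 in WT and 8 in C59, retention of CTCF was 100.0%, genes with Smc3 in WT were 31 and those without CTCF 27, and clusters held 8 and 10 CTCF peaks and 29 WT Smc3 peaks. With a window of 500 bp, genes with CTCF were 11 in WT and 7 in C59. With the gene start alone, genes with CTCF in C59 were 9. With a −log10 q of at least 10, genes with CTCF in WT were 13 and WT Smc3 peaks in clusters 34. With members up to 500 kb apart, clusters held 57 WT and 43 C59 CTCF peaks. The counts of genes with Smc3 in C59, of genes with Smc3 without CTCF in C59 and the retention of Smc3 stayed within these bounds under every alternative run. The cut to 25734 peaks kept the C59 Smc3 list whole, so it could not change the count of genes with Smc3 in C59. Under that cut, the retention of Smc3 set a shortened WT list against the whole C59 list. No paired analysis was possible because each line and protein had 1 library and the labels give no replicate numbers. Depth is unknown, so a gene without a peak had none called at this depth.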
